A study of Homo sapiens with 4 samples.

Results

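The array of cells labelled with both Her2 and PIK3CA-H1047R was compared with the array of cells labelled with Her2 alone, gene by gene. Both came from MCF10A, an established, non-tumorigenic human breast epithelial cell line. The members are these 2 of the 4 arrays of the series. The other 2 carried LacZ, a bacterial enzyme gene used as a control, or PIK3CA-H1047R alone, and their values are given beside the comparison. Every cell model was a stable transfection, was grown untreated in SFIHE medium and gave 1 array, made from 400 ng of total RNA with a whole-transcript labelling kit. Each model is therefore 1 culture of 1 transfected line as far as the labels say. There was 1 array a side, so no difference has a replicate check, an SD or a p-value, and "higher" and "lower" below describe these arrays only. Per the labels, the study looked for genes under the control of mutant PIK3CA, of Her2 or of the pair. Here the question is what differed when the mutant PIK3CA label was added to the Her2 label.

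Her2, the product of ERBB2, is a receptor tyrosine kinase that pairs with other ERBB receptors and signals through the RAS-MAPK and PI3K pathways. PIK3CA encodes the catalytic subunit of PI3K, which makes the membrane lipid that recruits AKT. The H1047R substitution in its kinase domain is a recurrent activating mutation in breast cancer. Signals from AKT act on FOXO transcription factors, on mTORC1 and lipid synthesis, and on entry into the cell cycle. MCF10A cells form epithelial sheets held together by E-cadherin junctions and desmosomes.

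Values are on the log2 scale of the deposited table, and 1 unit of difference means 2-fold. In what follows, 4 values in a row are in the order of the labels LacZ, Her2, mutant PIK3CA and both. The 4 arrays had medians of 1.13 to 1.17 over 53617 probe sets, and 69.0% to 69.8% of probe sets read under 2. A value under 2 is called near background here, and a difference against such a value has no known true size. Of 20906 measured genes without small RNAs, 4312 had a value of 5 or more on 1 or more of the 4 arrays and were counted. A gene was called higher or lower at 2-fold or more. No gene's level was set against that of another gene.

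The check of the introduced gene went against a label. The ERBB2 probe set, which the annotation also assigns to the microRNA gene MIR4728 inside ERBB2, read 5.96, 4.29, 8.48 and 7.39. The array labelled Her2 was the lowest of the 4, below LacZ, and the array labelled mutant PIK3CA was the highest. The array labelled with both genes exceeded the array labelled Her2 by 3.10. Its neighbours on the chromosome did not share this order. GRB7, an adaptor of receptor signalling, read 5.28, 3.74, 4.33 and 1.84, STARD3, a cholesterol-binding membrane protein, read 5.10, 4.42, 4.20 and 3.75, and MIEN1 read 5.26, 4.39, 4.42 and 4.70. No probe set with 1 symbol was named PIK3CA, so the other introduced gene was not checked. Every direction below therefore rests on the labels, and the arrays are called by their labels throughout. If the Her2 and mutant PIK3CA labels had been swapped, which was not tested, the comparison with Her2 alone would be the one against the array labelled mutant PIK3CA. Its list medians are given after those of the main comparison. Among the lists given there, medians above 0 were smaller (2.14 in place of 4.00 for mitotic genes). Medians below 0 were further from it (-1.28 in place of -0.78 for amino acid stress genes).

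Markers of breast epithelium were read on all 4 arrays. KRT5, a basal keratin, read 7.27, 7.08, 7.52 and 7.14, and ITGB4, the hemidesmosome integrin subunit, read 9.51, 8.94, 9.51 and 8.22. EPCAM read 7.94, 7.01, 7.78 and 5.71, CDH1 read 9.34, 8.94, 9.13 and 5.07, and EGFR read 8.11, 8.62, 8.35 and 7.16. KRT14, another basal keratin, was near background on the array labelled Her2. Values of KRT17 and TP63, also chosen as markers, are not shown. The estrogen receptor gene ESR1 was near background on each array, at 0.58, 0.60, 0.67 and 0.51. Of 13 leukocyte markers 11 read under 2 on the array labelled Her2 and 12 on the array labelled with both, the defining marker PTPRC among them (0.53 to 0.93 over the 4 arrays). The lysosomal protein CD68, above 2 on all arrays, read 4.68, 4.94, 6.24 and 6.78, and the summed linear level of the list was 57.2, 64.2, 103 and 136. Of 10 endothelial markers 7 read under 2 on the array labelled Her2 and 8 on the array labelled with both, CDH5 (0.66 to 0.88) and VWF (0.54 to 1.10) among them. The receptor KDR read 3.83, 3.57, 2.03 and 4.81, and the endothelial sums were 44.9, 36.4, 29.3 and 48.5. The part of these markers in the results was not tested.

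Promoters of genes from some of the groups described below are shown first, not all of them from the groups that differed most. They are printed so that letters known from cell cycle, interferon and epithelial promoters can be seen beside the values that follow. Each is the 250 bases upstream of the gene's start in RefSeq (GRCh38.p14), 5′ to 3′ on the gene's strand. In the first pair, of the mitotic genes TOP2A (chr17:40417897-40418146, minus strand) and CDK1 (chr10:60778081-60778330, plus strand), capitals mark the cell cycle genes homology region (TTTGAA) and the CCAAT box, on either strand.
TOP2A: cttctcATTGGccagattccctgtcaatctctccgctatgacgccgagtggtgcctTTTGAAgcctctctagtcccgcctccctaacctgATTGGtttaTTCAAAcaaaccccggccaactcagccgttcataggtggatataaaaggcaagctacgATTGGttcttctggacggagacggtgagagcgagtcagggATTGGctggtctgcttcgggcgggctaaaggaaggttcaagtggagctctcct
CDK1: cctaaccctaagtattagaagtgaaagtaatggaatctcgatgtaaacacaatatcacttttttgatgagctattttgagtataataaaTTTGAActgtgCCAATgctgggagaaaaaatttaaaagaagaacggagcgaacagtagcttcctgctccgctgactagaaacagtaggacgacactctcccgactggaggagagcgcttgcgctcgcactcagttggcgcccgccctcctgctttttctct
In the next pair, of the replication genes DTL (chr1:212035498-212035747, plus strand) and GINS2 (chr16:85688955-85689204, minus strand), capitals mark an E2F site, searched as TTTCCCGC, TTTGGCGC, TTTGCCGC or TTTCGCGC on either strand.
DTL: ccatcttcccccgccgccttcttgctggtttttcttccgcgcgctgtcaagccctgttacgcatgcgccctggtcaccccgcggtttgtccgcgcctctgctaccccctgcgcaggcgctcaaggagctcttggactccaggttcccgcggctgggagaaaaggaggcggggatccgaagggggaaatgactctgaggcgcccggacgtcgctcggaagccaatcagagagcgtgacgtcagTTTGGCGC
GINS2: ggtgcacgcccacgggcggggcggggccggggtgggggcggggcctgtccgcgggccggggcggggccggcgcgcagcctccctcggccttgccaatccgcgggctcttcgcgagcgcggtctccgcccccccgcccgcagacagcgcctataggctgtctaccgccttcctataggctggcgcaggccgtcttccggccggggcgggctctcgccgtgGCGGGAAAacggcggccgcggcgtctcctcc
In IFI6 (chr1:27672193-27672442, minus strand), an interferon-stimulated gene, capitals mark 3 matches to the interferon-stimulated response element (TTTC, NN and TTTC in a row, either strand).
IFI6: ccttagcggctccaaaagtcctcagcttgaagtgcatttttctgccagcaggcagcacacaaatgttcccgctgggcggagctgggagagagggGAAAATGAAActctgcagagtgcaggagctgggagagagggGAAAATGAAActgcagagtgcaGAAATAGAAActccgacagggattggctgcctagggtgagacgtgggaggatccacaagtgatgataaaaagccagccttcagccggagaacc
In AP1M2 (chr19:10587313-10587562, minus strand), an epithelial sorting adaptor, capitals mark 3 copies of the E-box CACCTG (either strand), letters that repressors of the ZEB and SNAI families are known to bind.
AP1M2: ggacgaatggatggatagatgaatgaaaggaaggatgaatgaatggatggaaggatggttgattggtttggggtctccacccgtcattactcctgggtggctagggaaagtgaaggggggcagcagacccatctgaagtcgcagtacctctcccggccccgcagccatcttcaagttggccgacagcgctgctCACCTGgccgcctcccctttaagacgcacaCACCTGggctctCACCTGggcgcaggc

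These letters were then counted in all 27305 promoters of the RefSeq table, in windows of the same length. TTTGAA was in 55.9% of the 34 mitotic spindle and checkpoint promoters found in the table, against 13.6% of all promoters. It occurred together with a CCAAT box in 47.1% of the mitotic promoters and in 4.85% of all. The E2F letters were in 39.5% of 38 replication promoters and in 2.79% of all, and TTTGAA was in 0 of these 38. The interferon element was in 62.5% of 32 interferon-stimulated promoters and 3.07% of all. CACCTG was in 50.0% of 16 promoters of the epithelial polarity list, in 16.7% of 12 promoters of the tight junction list and in 17.5% of all. The motifs were chosen with the values known, some overlap in their letters (TTTGAA and the E2F letters share TTTG), and a match is a description of these letters only. Among mitotic genes, the 19 with TTTGAA had a median difference of 4.22 and the 15 without it 4.07, so the differences did not separate by this motif.

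The same letters, and an amino acid response element, were counted over all counted genes with a promoter entry. TTTGAA was in 17.3% of 329 higher genes, 9.48% of 211 lower genes and 9.22% of the 3602 counted genes. The CCAAT box was in 47.7% of the higher genes, 35.5% of the lower genes and 36.0% of all counted ones. The E2F letters were in 7.60% of the higher, 1.42% of the lower and 5.27% of all counted genes. Part of these shares came from the proliferation lists (mitosis, mitotic kinesins, replication, nucleotide synthesis, recombination, histones and G1 genes). In the 255 higher genes outside them, the E2F letters were in 4.71%, TTTGAA in 12.2% and the CCAAT box in 41.2%. The interferon element was about as frequent in each set, at 2.13%, 2.37% and 1.92%. CACCTG was in 25.1% of the lower genes, 13.7% of the higher genes and 13.4% of all counted ones. TGATGNAA, the amino acid response element, was in 4.74% of the lower genes, 0.304% of the higher genes and 1.44% of all counted ones.

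Of the 4312 counted genes, 392 (9.09%) were at least 2-fold higher on the array labelled with both genes than on the array labelled Her2, and 263 (6.10%) were lower. Higher genes made up 59.8% of the 655 that differed. This share was 49.1% after quantile normalization and 45% after cyclic loess of the counted genes, so which direction was the more frequent depended on the scaling. It was also 44.5% when genes were kept by their mean over the 4 arrays in place of their highest value. The quartiles of the difference were -0.39 and 0.42, around a median of 0.01.

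The large differences ran mostly in 1 direction. At 8-fold or more, 97 genes were higher and 8 lower, and at 16-fold or more 48 were higher and 1, CDH11, was lower. The 14 genes at 32-fold or more were all higher, and 7 of them read under 2 on the array labelled Her2, so the folds of those 7 have no known true size. Of the 392 higher genes, 45 read under 2 on the array labelled Her2, while 6 of the 263 lower genes read under 2 on the array labelled with both. Among the 628 genes at 7 or more on both arrays, a filter that leaves out genes rising from lower values, 11 (1.75%) were higher and 15 (2.39%) were lower. With 7 or more on at least 1 of the 4 arrays, 96 were higher and 113 lower.

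**Figure D1:**
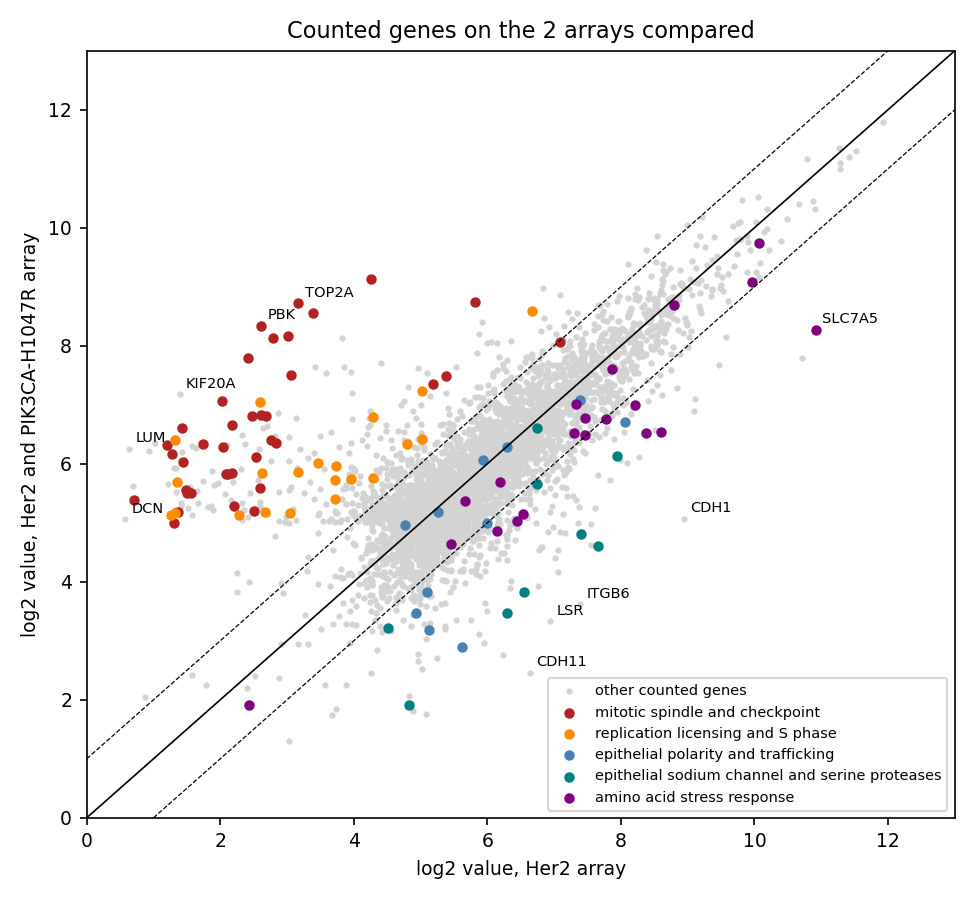
Log2 values of the 4312 counted genes on the array labelled Her2 (horizontal axis) and the array labelled Her2 and PIK3CA-H1047R (vertical axis). Each point is 1 gene and the dashed lines mark 2-fold; members of 5 gene lists are coloured. The mitotic (red) and replication (orange) genes lie above the upper line at low Her2 values, and epithelial (blue and green) and amino acid genes (purple) include points below the lower line, with CDH1 at 8.94 and 5.07.

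Genes of mitosis made up the top of the ranking. Of the 43 measured members of a list of spindle, checkpoint and chromosome condensation genes, 42 were at least 2-fold higher, against 4.41% of all 20906 measured genes without a filter. No member was lower, against 2.64% of all measured genes. The median difference was 4.00, beside -0.01 over all measured genes, and 15 members read under 2 on the array labelled Her2. The kinesin KIF20A, which acts in cytokinesis, read 1.40, 1.39, 3.67 and 7.18. Its difference of 5.79 was numerically the largest of the counted genes, but starts from a value near background. PBK, a mitotic kinase, read 3.35, 2.61, 5.23 and 8.34 (53.2-fold).

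The same order held for well-known members with readable values on all arrays. TOP2A, which untangles DNA before segregation, read 4.39, 3.17, 6.50 and 8.73 (47.1-fold). MKI67, the gene of the Ki-67 proliferation antigen, read 4.60, 3.39, 6.76 and 8.56 (36.0-fold). ANLN, a scaffold of the cleavage furrow, read 5.23, 4.25, 7.72 and 9.13 (29.3-fold). In each of these 5 genes the array labelled with both was the highest and the array labelled mutant PIK3CA came next. The array labelled Her2 was the lowest, for KIF20A level with LacZ.

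Cyclins and kinases of the G2 and M phases were in the same group. CCNA2 (cyclin A) read 3.09, 2.41, 4.91 and 7.79, and its partner CDK1 read 1.66, 1.42, 2.94 and 6.62. CCNB1 (cyclin B) differed by 3.57 and the polo kinase PLK1 by 4.22. FOXM1, a transcription factor of this gene group, read 2.70, 2.60, 3.44 and 5.59, a difference of 2.99. Kinetochore genes differed by 4.68 (NUF2), 4.59 (NDC80) and 5.10 (KNL1), each from a value near background on the array labelled Her2, at 0.71, 1.44 and 1.21. ESCO2, which acetylates cohesin, read 1.17, 0.69, 2.16 and 5.63, and the condensin subunit NCAPG read 2.36, 2.79, 4.75 and 8.13.

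Kinesins separated by their function. All 13 mitotic kinesins were higher by 2-fold or more, and their median difference was 3.88. Of 23 other kinesins, which carry organelles and vesicles, 1 (KIFC3, by 1.30) was higher and the median was 0.09. KIF14 read 1.24, 1.43, 4.06 and 6.21, while KIFAP3, an adaptor of a transport motor, read 6.77, 6.80, 7.24 and 7.39. KIF27, KIF3B and KIF1A were among those lower on the array labelled with both, by less than 2-fold.

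**Figure D2:**
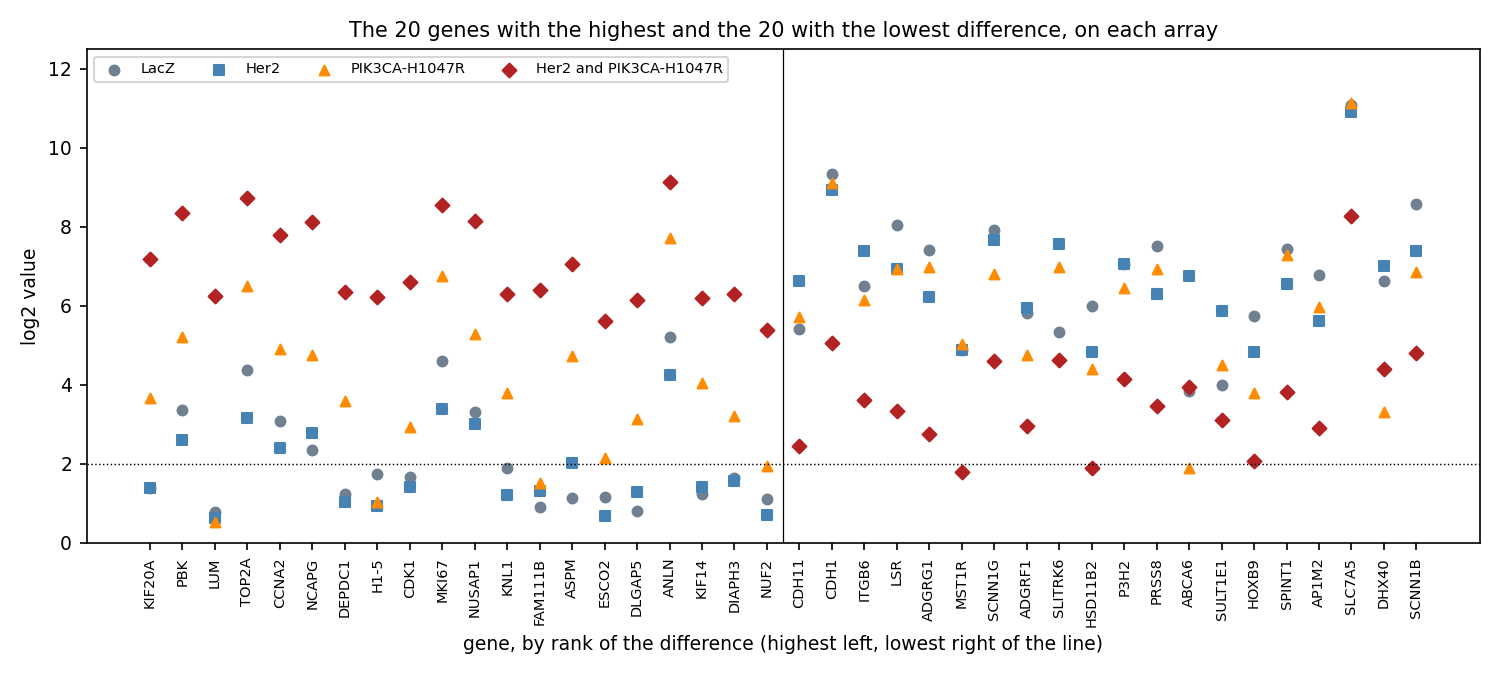
Log2 values on each of the 4 arrays for the 20 counted genes with the highest and the 20 with the lowest difference between the arrays labelled Her2 and PIK3CA-H1047R (red) and Her2 (blue). The dotted line marks a log2 value of 2. Left of the vertical line the red point lies above the other arrays for each gene, with KIF20A at 7.18 against 1.39 to 3.67, and right of it the red point is the lowest of the 4 except for DHX40 and ABCA6.

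DNA replication genes were also higher. Of 45 measured members, 40 were at least 2-fold higher and 0 lower, with a median of 2.12. DTL, a receptor of the ubiquitin ligase that degrades licensing factors, read 2.66, 2.60, 3.78 and 7.05. FAM111B, a protease-like gene expressed in S phase, read 0.90, 1.32, 1.52 and 6.40, near background on the other 3 arrays. CLSPN, an adaptor of the replication checkpoint, read 1.32, 1.35, 1.79 and 5.69.

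Subunits of the replicative helicase differed by smaller amounts from clearly detected values. MCM6 read 3.36, 3.46, 3.38 and 6.01, MCM4 read 5.39, 5.03, 5.62 and 7.23, and MCM7 read 5.00, 5.02, 5.23 and 6.42. Their differences were 2.56, 2.20 and 1.40. The sliding clamp PCNA read 6.78, 6.66, 7.06 and 8.58. For these 4 genes the arrays labelled LacZ, Her2 and mutant PIK3CA lay close together and the array labelled with both stood above them. CCNE2 (cyclin E) differed by 3.85 and CDC6, which loads the helicase, by 3.87, both from values under 2 on the array labelled Her2.

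Supply and repair of DNA followed in part. Of 23 nucleotide synthesis genes 8 were higher. TYMS, the thymidylate synthase, read 2.33, 3.42, 3.16 and 7.64, and the ribonucleotide reductase subunit RRM2 read 2.37, 1.90, 3.57 and 5.64. Of 22 genes of homologous recombination and the Fanconi pathway 12 were higher, with a median of 1.58, but 11 read under 2 on the array labelled Her2. BRCA1 read 2.22, 2.32, 2.04 and 4.51. Of 18 replication-dependent histone genes 8 were higher and 0 lower. H2AC20 was readable on every array at 8.94, 8.54, 8.64 and 9.85. H1-5 was at 6.21 on the array labelled with both and under 2 on the other 3.

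Regulators upstream of S phase differed less. Of 17 genes for G1 cyclins, kinases and their partners, 6 were higher. CCND1 (cyclin D) read 6.74, 6.06, 6.93 and 6.49 and CDK4 read 6.86, 6.80, 5.92 and 6.80. RBL1, a relative of the retinoblastoma protein, read 3.98, 3.65, 3.91 and 6.54 and SKP2, which targets a CDK inhibitor for degradation, read 5.49, 6.10, 4.67 and 7.27. None of 6 CDK inhibitor genes was 2-fold different. CDKN1A read 5.07, 4.45, 4.67 and 4.59. Of 24 p53 target genes 1, the pro-apoptotic BAX, was lower, with a difference of -1.06, and 0 were higher, with a median of 0.09.

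**Figure D3:**
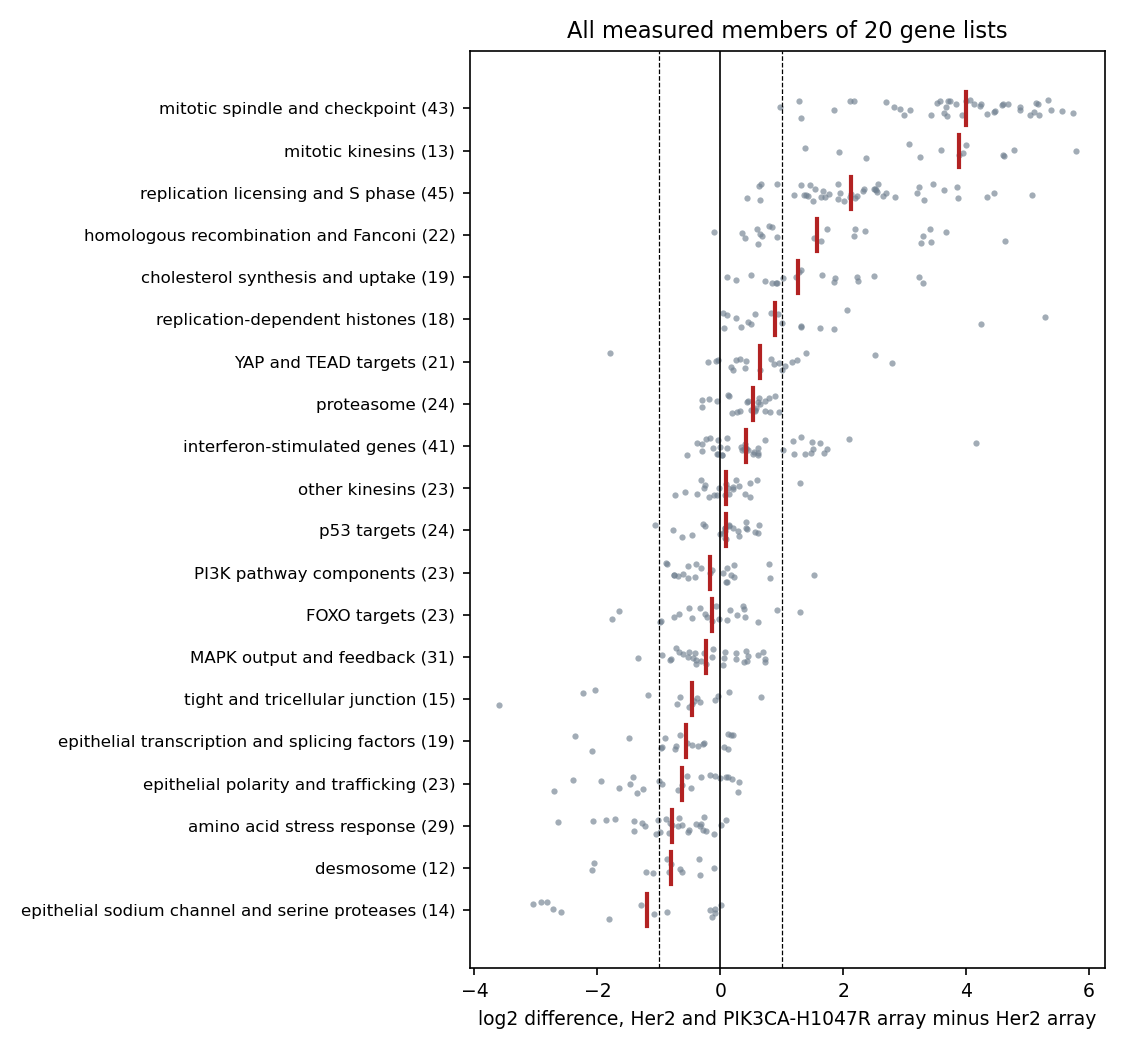
Difference in log2 value between the arrays labelled Her2 and PIK3CA-H1047R and Her2 for every measured member of 20 gene lists. Each point is 1 gene, the red bar is the median of the list, the number of members is in brackets and the dashed lines mark 2-fold. The medians run from 4.00 for the mitotic list to -1.19 for the sodium channel and serine protease list, and the p53, PI3K, FOXO and MAPK lists lie around 0.

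The mutant PIK3CA label could also be set against LacZ, in a pair of arrays that shares none with the main comparison. There, 305 counted genes (7.07%) were higher and 176 (4.08%) lower. Of these, 113 were higher in both pairs, which is 28.8% of the 392 here and 37.0% of the 305 there. Of the lower genes 50 were shared, 19.0% of the 263 here and 28.4% of the 176 there. Opposite differences of 2-fold or more were seen in 5 genes higher here and 17 lower here.

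Genes highest in both pairs were again mitotic. ASPM, a spindle pole protein, read 1.13, 2.03, 4.72 and 7.06, with differences of 5.04 here and 3.60 against LacZ. BUB1, a checkpoint kinase, differed by 4.24 and 3.34, and HMMR, a hyaluronan receptor and spindle protein, by 4.12 and 3.33. SERPINB7, an epithelial protease inhibitor, read 2.23, 3.05, 6.52 and 5.60 and CCN1, a matrix-associated signalling protein, read 3.26, 3.78, 6.55 and 6.29. In SERPINB7 and CCN1 the array labelled mutant PIK3CA was the highest, unlike the mitotic genes.

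Genes lowest in both pairs had other functions. The RNA helicase DHX40 read 6.64, 7.02, 3.32 and 4.40, and the membrane protein EMP3 read 7.06, 6.80, 3.75 and 4.59. KLK6, a secreted protease, read 8.07, 5.25, 3.70 and 2.71. HOXB9, a homeobox gene, read 5.75, 4.83, 3.79 and 2.07. DHX40 and EMP3 were lowest on the array labelled mutant PIK3CA, and KLK6 and HOXB9 on the array labelled with both.

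The mitotic and replication lists differed in how they read in the LacZ pair. The 43 mitotic genes had a median of 1.72 there with 30 at least 2-fold higher, beside 4.00 with 42 here. The 45 replication genes had a median of 0.16 there with 2 higher, beside 2.12 with 40 here. Background shares in the LacZ pair were 2.61% higher and 1.93% lower over all measured genes. With 1 array per group, the difference between the pairs was not tested.

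**Figure D4:**
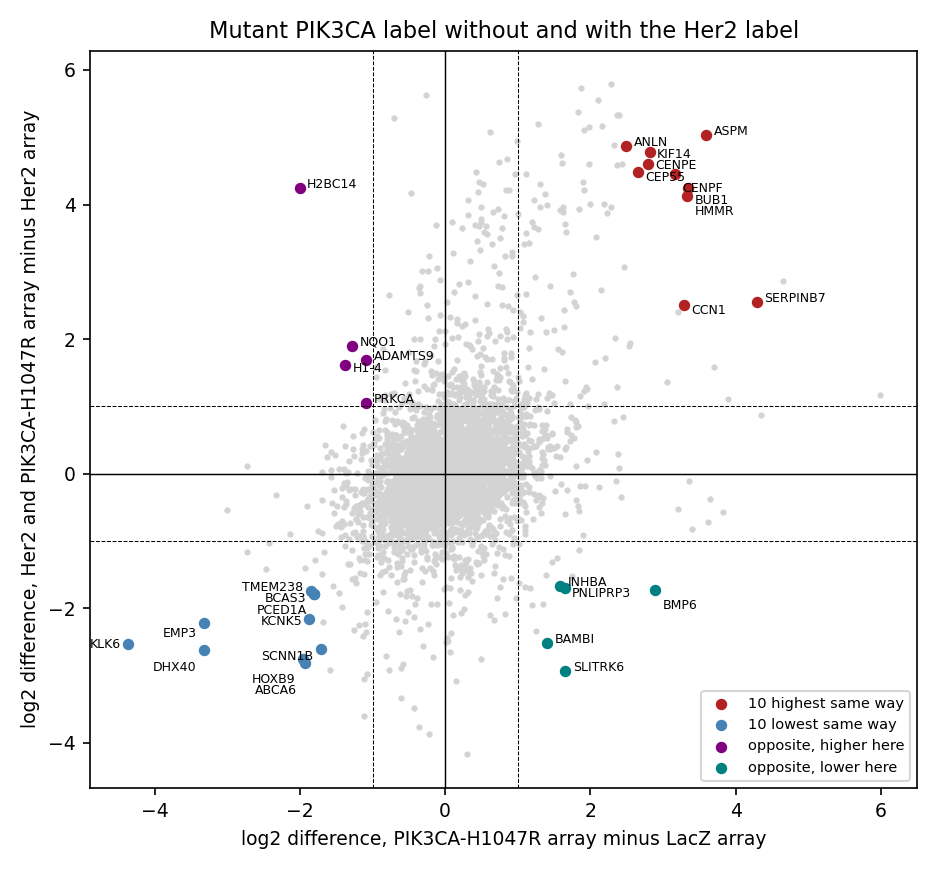
Difference in log2 value between the arrays labelled PIK3CA-H1047R and LacZ (horizontal axis) and between those labelled Her2 and PIK3CA-H1047R and Her2 (vertical axis) for the 4312 counted genes. Dashed lines mark 2-fold; colours mark the genes named by their differences in both pairs. The red genes lie high in both pairs, with ASPM at 3.60 and 5.04, and the purple and green genes lie in opposite quadrants, with H2BC14 at -2.00 and 4.25.

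Cholesterol synthesis genes were higher. Of 19 measured genes for synthesis and uptake, 12 were at least 2-fold higher and 0 lower, all 19 differed in that direction, and the median was 1.27. HMGCS1, which makes the precursor of mevalonate, read 3.85, 3.97, 4.76 and 7.21. ACAT2, which makes acetoacetyl-CoA, read 4.64, 4.41, 5.56 and 7.70, and INSIG1, a sterol sensor, read 5.88, 5.92, 7.68 and 8.41. MSMO1 was well expressed throughout, at 7.78, 8.11, 8.71 and 9.38. The array labelled with both was the highest and mutant PIK3CA the next in these 4 genes. Fatty acid synthesis genes differed by less. Of 12 genes 11 lay above 0, with a median of 0.35, and 1 was at least 2-fold higher. This was ACLY, which makes acetyl-CoA for lipid synthesis, higher by 1.18, while FASN read 6.94, 6.10, 6.76 and 6.36.

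Amino acid transport and stress-response genes were lower. Of 29 genes, many of them targets of the transcription factor ATF4, 10 were at least 2-fold lower, 0 were higher and 2 lay above 0, with a median of -0.78. SLC7A5, the light chain of the large neutral amino acid transporter, read 11.08, 10.92, 11.15 and 8.27, a 6.25-fold difference. Its heavy chain SLC3A2 read 8.56, 8.61, 8.77 and 6.54. The cystine transporter SLC7A11 read 7.08, 8.37, 8.06 and 6.52 and the glutamine transporter SLC1A5 read 8.51, 8.21, 8.63 and 6.99. The array labelled with both was the lowest in each, and the other 3 lay close together for SLC7A5 and SLC3A2.

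Other members of this response were lower by different amounts. TRIB3, a pseudokinase, read 6.74, 6.44, 6.53 and 5.04, CHAC1, which degrades glutathione, read 6.73, 6.54, 7.08 and 5.14, and PHGDH, the first enzyme of serine synthesis, read 6.16, 6.15, 6.44 and 4.87. ATF4 itself read 7.71, 7.87, 7.97 and 7.61, a difference of -0.26. ASNS, the asparagine synthetase, was lower, at -0.50, under 2-fold. Of 19 cytosolic tRNA synthetases 1, SARS1, was 2-fold lower and the median was -0.21. Of 17 unfolded protein response genes SEL1L and HERPUD1 were lower, and HSPA5 read 9.28, 9.61, 9.97 and 9.21.

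Epithelial adhesion genes were among the lowest. E-cadherin, CDH1, read 9.34, 8.94, 9.13 and 5.07, so the array labelled with both was 14.6-fold below the array labelled Her2. P-cadherin, CDH3, read 8.22, 7.55, 7.92 and 4.98. JUP (plakoglobin), which links cadherins to the cytoskeleton, read 8.23, 6.99, 7.72 and 4.93. In these 3 genes the spread of the arrays labelled LacZ, Her2 and mutant PIK3CA was smaller than their gap to the array labelled with both. The junction protein CTNNB1 (beta-catenin) did not take part, at 6.27, 6.65, 6.21 and 6.74. Of 10 adherens junction genes 4 were lower and 0 higher.

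Tight junction and desmosome genes were lower in part. LSR, which recruits proteins to junctions where 3 cells meet, read 8.05, 6.94, 6.94 and 3.33 (12.2-fold), and its partner at those sites, MARVELD2, read 5.60, 5.08, 4.81 and 3.04. CLDN7 read 8.11, 7.08, 7.87 and 4.85 and CLDN1 read 6.73, 6.01, 7.45 and 4.84. Of 15 tight junction genes 4 were lower, 0 higher, and 7 were near background on both arrays. The scaffold TJP1 read 7.21, 7.42, 7.62 and 6.97.

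Of 12 desmosome genes 4 were lower, and 12 of 12 differed in that direction, with a median of -0.81. The desmosomal cadherin DSG3 read 7.95, 8.09, 8.76 and 6.01 and the linker DSP read 8.79, 8.59, 9.52 and 7.50. Among keratins and other basal genes, KRT15 read 7.37, 6.36, 6.74 and 4.01, while KRT5 differed by 0.06 and KRT14 was higher by 1.63 from a value of 1.80. LAMB3, a chain of the basement membrane laminin, read 8.61, 8.19, 10.15 and 6.94.

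Genes of polarity and apical membrane traffic were lower too. Of 23 genes 8 were lower and 0 higher, with a median of -0.62. AP1M2, the epithelial sorting adaptor shown above with 3 CACCTG copies, read 6.79, 5.62, 5.98 and 2.90. MYO5B, a motor for recycling vesicles, read 6.56, 5.12, 6.37 and 3.19, and RAB25, an epithelial recycling GTPase, read 6.20, 4.94, 5.64 and 3.48. CRB3 and LLGL2, from opposing polarity complexes, differed by -1.42 and -1.65. For AP1M2, MYO5B and RAB25 the array labelled Her2 was itself more than 2-fold below LacZ.

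Epithelial transcription and splicing factors went the same way in 3 of 19 genes. The splicing factor ESRP1 read 8.22, 7.62, 8.31 and 5.24, the transcription factor SOX9 read 8.32, 7.37, 8.94 and 5.27, and ELF3 read 4.67, 3.33, 3.60 and 1.84. GRHL2 was lower, at -0.97, just under 2-fold. None of the 19 was higher.

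Other genes among the 20 lowest belonged to none of the lists. The adhesion receptor ADGRG1 read 7.43, 6.24, 6.99 and 2.76 and ADGRF1, of the same family, read 5.83, 5.95, 4.76 and 2.97. P3H2, which hydroxylates collagen prolines, read 7.06, 7.05, 6.45 and 4.16. SULT1E1, the estrogen sulfotransferase, read 4.01, 5.87, 4.50 and 3.11, and the lipid transporter ABCA6 read 3.84, 6.75, 1.91 and 3.94. SULT1E1 and ABCA6 were highest on the array labelled Her2, and ABCA6 was level between LacZ and the array labelled with both.

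The epithelial sodium channel and the membrane proteases around it had the lowest median of the lists shown, -1.19, with 8 of 14 genes lower. The channel subunits SCNN1G and SCNN1B read 7.92, 7.66, 6.80 and 4.61 and 8.58, 7.40, 6.87 and 4.80. The channel-activating protease PRSS8 read 7.51, 6.30, 6.92 and 3.48. ST14 (matriptase) read 5.62, 4.52, 5.04 and 3.22, and the inhibitor of both proteases, SPINT1, read 7.44, 6.55, 7.28 and 3.82. Channel, proteases and inhibitor were thus all lowest on the array labelled with both.

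Secreted proteases and antiproteases of the epithelium were lower in several cases. The kallikreins KLK5, KLK6, KLK7 and KLK10, which lie next to each other on chromosome 19 among counted genes, were each at least 2-fold lower. KLK5 read 9.53, 8.28, 8.85 and 6.12 and KLK7 read 9.66, 7.57, 9.33 and 6.41. SLPI, a leukocyte protease inhibitor, read 9.54, 9.10, 9.80 and 7.09, and PI3 (elafin) read 7.13, 6.29, 7.62 and 4.79. In all, 4 of 14 kallikreins and 2 of 15 antimicrobial and antiprotease genes were lower, with medians of -0.37 and -0.01. The share over all measured genes was 2.64%. KRT8, a luminal keratin, was lower, at -1.24. Of 18 luminal genes 2 were lower and 0 higher, with a median of -0.17, and 9 were near background on the array labelled Her2.

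Mesenchymal genes differed in both directions. Of 21 genes 7 (33.3%) were higher and 2 (9.52%) lower, beside 4.41% and 2.64% of all measured genes. The median of the list was 0.01. N-cadherin, CDH2, read 0.97, 1.67, 1.53 and 5.34, a difference of 3.67 from near background. In the opposite direction, cadherin-11 (CDH11) had the lowest difference of any counted gene. It read 5.43, 6.63, 5.72 and 2.46, a difference of -4.17. The gelatinase MMP2 read 3.92, 6.78, 2.72 and 4.54. FBN1 (fibrillin) read 2.09, 4.64, 2.12 and 5.65, high on both arrays with a Her2 label. NT5E, a surface nucleotidase, read 7.92, 8.37, 8.83 and 9.62.

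Of 11 transcription factors of epithelial-mesenchymal transition 1 was at least 2-fold different. ZEB1 read 1.08, 1.97, 1.76 and 3.36, higher by 1.40 from near background. SNAI2 was high and flat at 9.32, 9.77, 9.74 and 9.81. TWIST1 read 4.02, 5.84, 3.99 and 5.22, higher on the arrays with a Her2 label. Of 19 collagens 0 were higher and COL8A1 was lower, at -2.00.

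Markers of fibroblasts moved with some of these values. LUM (lumican) read 0.78, 0.63, 0.52 and 6.26 and DCN (decorin) 0.73, 0.57, 1.15 and 5.06, so both stood above background on the array labelled with both genes alone. DPT (dermatopontin) read 3.41, 8.38, 3.69 and 7.86, high on both arrays with a Her2 label. Over the 9 fibroblast markers, 2 were higher, 1 (FAP, at -1.06) lower, and the summed linear level was 48.0, 410, 57.2 and 384. The defining collagen genes COL1A1 (1.78 to 2.24) and COL1A2 (0.73 to 0.87) were at or near background on all 4 arrays. The part of these markers in the mesenchymal and epithelial differences was not tested.

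Cell-matrix genes gave single large differences. The integrin subunit ITGB6, which pairs in an epithelial receptor that activates TGF-beta, read 6.52, 7.39, 6.16 and 3.63 (13.6-fold lower), and ITGA2 was lower, at -1.13. Of 17 integrins 2 were lower and ITGA10 was higher. MMP1, the interstitial collagenase, read 1.29, 0.87, 7.27 and 2.04, high on the array labelled mutant PIK3CA only. HAS2, a hyaluronan synthase, read 0.98, 4.01, 1.35 and 5.86.

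Among the receptors and ligands of the ERBB family 2 of 15 genes were lower and 0 higher, ERBB2 left out. EGFR read 8.11, 8.62, 8.35 and 7.16, and HBEGF, one of its ligands, read 5.68, 4.86, 5.37 and 3.25. ERBB3, the usual partner of Her2, was lower, at -0.96 (3.69, 3.06, 3.08 and 2.10). MST1R, the receptor of macrophage-stimulating protein, read 4.88, 4.89, 5.03 and 1.81 and was near background on the array labelled with both. AXL, another receptor kinase, read 5.72, 6.56, 6.04 and 7.73. EGFR and MST1R were lowest and AXL was highest on the array labelled with both.

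The PI3K and MAPK pathway lists showed few differences of 2-fold. Of 23 PI3K pathway components 1, the lipid phosphatase INPP5D, was higher (1.96, 1.52, 1.70 and 3.06), and the median was -0.16. Of 23 FOXO target genes 1 was higher and 2 were lower. IRS2 read 6.54, 6.41, 6.37 and 5.66 and IGF1R read 5.41, 5.03, 5.01 and 4.17, both lower by less than 2-fold. Of 31 MAPK output and feedback genes 1 was lower. DUSP6, a phosphatase of ERK, read 8.56, 8.41, 7.23 and 7.06, low on both arrays with a mutant PIK3CA label.

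TGF-beta, BMP and YAP genes differed in both directions. Of 25 TGF-beta and BMP ligands and targets 5 were lower and 1 higher. ID1, a BMP target, read 6.59, 6.90, 5.51 and 4.84, and the ligand BMP2 read 4.90, 5.31, 5.99 and 3.62. LTBP1, which stores latent TGF-beta, read 3.04, 5.88, 5.00 and 7.14. Of 21 YAP and TEAD targets 6 were higher and 1 lower, with a median of 0.64. ANKRD1 was above background on the array labelled with both (3.56 against 0.76 to 0.93), and IGFBP3 read 2.93, 4.13, 3.08 and 2.33. None of 20 Notch pathway genes differed by 2-fold, while HES1 read 5.22, 5.27, 8.84 and 4.55.

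Interferon-stimulated genes were higher in part and mostly at low values. Of 41 genes 13 were higher and 0 lower, with a median of 0.42, and 26 read under 2 on the array labelled Her2. IFI6, a mitochondrial antiviral protein, read 2.15, 2.64, 1.68 and 6.80. SAMD9 read 4.16, 5.01, 4.63 and 6.53 and the RNA sensor RIGI read 3.34, 3.20, 3.40 and 4.89. ISG15 and MX1 were near background on the array labelled with both, at 1.73 and 1.24, with differences of 0.00 and 0.42. B2M, the light chain of class I molecules, was at 8.04 on the array labelled with both, a difference of 2.04, while HLA-C read 6.12, 5.65, 6.06 and 5.85. Of 28 cytokine and NF-kB feedback genes 3 were higher, and CXCL8 (interleukin-8) read 0.84, 2.04, 2.61 and 4.75.

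S100 genes were higher in 5 of 17 cases, 2 after quantile normalization, and lower in 1, with a median of 0.68. S100A8 read 3.05, 2.51, 2.87 and 4.68, and S100A14 was lower at 9.47, 8.85, 10.26 and 7.28. Of the 17, 15 lie on chromosome 1, which is described below.

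Genes at 7 or more on both arrays were read well above background on each side. The nuclear import factor KPNA2 had the highest difference among them, at 7.44, 7.09, 7.25 and 8.86, and its export factor CSE1L read 9.02, 8.99, 9.07 and 10.05. The antioxidant enzyme PRDX3 read 6.93, 7.03, 6.90 and 8.21. For these 3 genes the other arrays lay close together. After SLC7A5 and SLPI, the lowest difference was that of SULF2, which edits heparan sulfate (9.11, 9.47, 8.48 and 7.67). S100A14 (-1.57), the receptor EGFR (-1.45) and the dioxin receptor AHR (9.17, 9.58, 9.33 and 8.14) came next. Of 24 proteasome genes 0 were 2-fold different, with a median of 0.53, and of 18 oxidative phosphorylation genes 0, with a median of 0.32. Of 12 housekeeping genes 3 were higher, B2M by 2.04, HPRT1 by 1.70 and GUSB by 1.02, with a median of 0.52.

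Small RNA genes stood outside these counts. Of 1489 measured, 60 (4.03%) were at least 2-fold higher on the array labelled with both genes than on the array labelled Her2. Another 37 (2.48%) were lower. Over the 20906 measured genes without small RNAs and without a filter, the shares were 4.41% and 2.64%. Small RNA genes as a class were therefore called about as often as other genes. Small nucleolar and Cajal body RNAs made up 31 of the 60 higher and 5 of the 37 lower, out of 238 measured. Their median difference was 0.14. SNORA23, which guides RNA modification, read 6.62, 5.18, 8.02 and 9.85. SNORD3C, a copy of the U3 RNA of ribosome assembly, read 4.55, 3.82, 7.54 and 8.44, and RNU5A-8P, a spliceosomal RNA relative, read 4.53, 4.33, 6.98 and 8.06. All 3 were highest on the array labelled with both and lowest on the array labelled Her2. SNORD3C and RNU5A-8P belong to families of near-identical copies, so which copy was measured is uncertain. Of 1018 microRNA genes 14 were higher and 27 lower, and 9 reached 5 on any array.

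Set against the array labelled mutant PIK3CA, the array labelled with both also differed in these lists. This contrast shares the array labelled with both genes with the main one, so its values stand beside it and are no second measurement. In it the median of the mitotic genes was 2.14, with 40 of 43 higher, and the replication list 1.90 with 40 of 45 higher. The cholesterol list had a median of 0.71 with 6 of 19 higher. Amino acid stress genes had a median of -1.28 with 19 of 29 lower, desmosome genes -1.25 with 9 of 12 lower, and the sodium channel and protease list -1.55 with 8 of 14 lower. Background shares there were 5.28% higher and 3.48% lower over all measured genes.

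Position in the genome was not used in choosing genes, and chromosome 1 stood apart. Gene positions were those of RefSeq (GRCh38.p14), known for 4306 counted genes. The 477 counted genes of chromosome 1 had a median difference of 0.42, and 75.9% of them were above 0. Over the 3829 genes on other chromosomes the median was -0.03 and 47.5% were above 0. On chromosome 1, 96 genes (20.1%) were at least 2-fold higher and 12 (2.52%) lower, beside 7.70% and 6.53% elsewhere.

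The shift was unevenly spread along chromosome 1. Cut into 8 blocks of 59 or 60 counted genes in order, the medians were 0.30, 0.42, 0.52, 0.18, 0.27, 0.53, 0.65 and 0.64. In 16 blocks of 29 or 30 genes it was absent from the first, which ends at PINK1, with a median of -0.15, and from DPYD to MAN1A2, with a median of 0.02, and the other 14 medians were 0.24 to 0.71. The same 2 blocks had medians of -0.06 and -0.01 for mutant PIK3CA against LacZ. The last of the 8 blocks, from RPL21P28 to ZNF692, had 19 of 59 genes higher and 0 lower. Adjacent counted genes that were each at least 2-fold higher included NSL1, FLVCR1, ANGEL2 and SMYD2, then CHML, EXO1 and PLD5, and IFI16, CADM3 and DUSP23. NSL1 is a kinetochore subunit and EXO1 a DNA repair nuclease, whereas FLVCR1 is a heme exporter and SMYD2 a methyltransferase, so the runs mixed functions.

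Several other measures were set beside this shift. Without the proliferation lists 75.2% of chromosome 1 genes were above 0. In 5 bins of promoter GC content, chromosome 1 genes had medians of 0.37 to 0.51 and other genes -0.08 to 0.01. The shift was also present in the pair of arrays that shares none with this one, with a median of 0.41 and 80.1% above 0 for mutant PIK3CA against LacZ. It was small in the contrasts within the same PIK3CA label, at 0.06 for Her2 against LacZ and 0.08 for both against mutant PIK3CA, which reuse these arrays. Over all measured genes of chromosome 1, without the filter, the median was 0.09.

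Chromosomes 17, 19 and 16 had the lowest medians, at -0.27, -0.24 and -0.16. On chromosome 17 the 4 blocks of 76 genes had medians of -0.01, -0.23, -0.45 and -0.51 in order along it, and 30 of 304 genes were lower. In the LacZ pair its median was -0.56, and Her2 against LacZ gave -0.34. DHX40, BCAS3 (6.41, 5.96, 4.60 and 4.18) and HOXB9, lower in both pairs, lie on it, as does the mitotic gene TOP2A, which was higher.

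**Figure D5:**
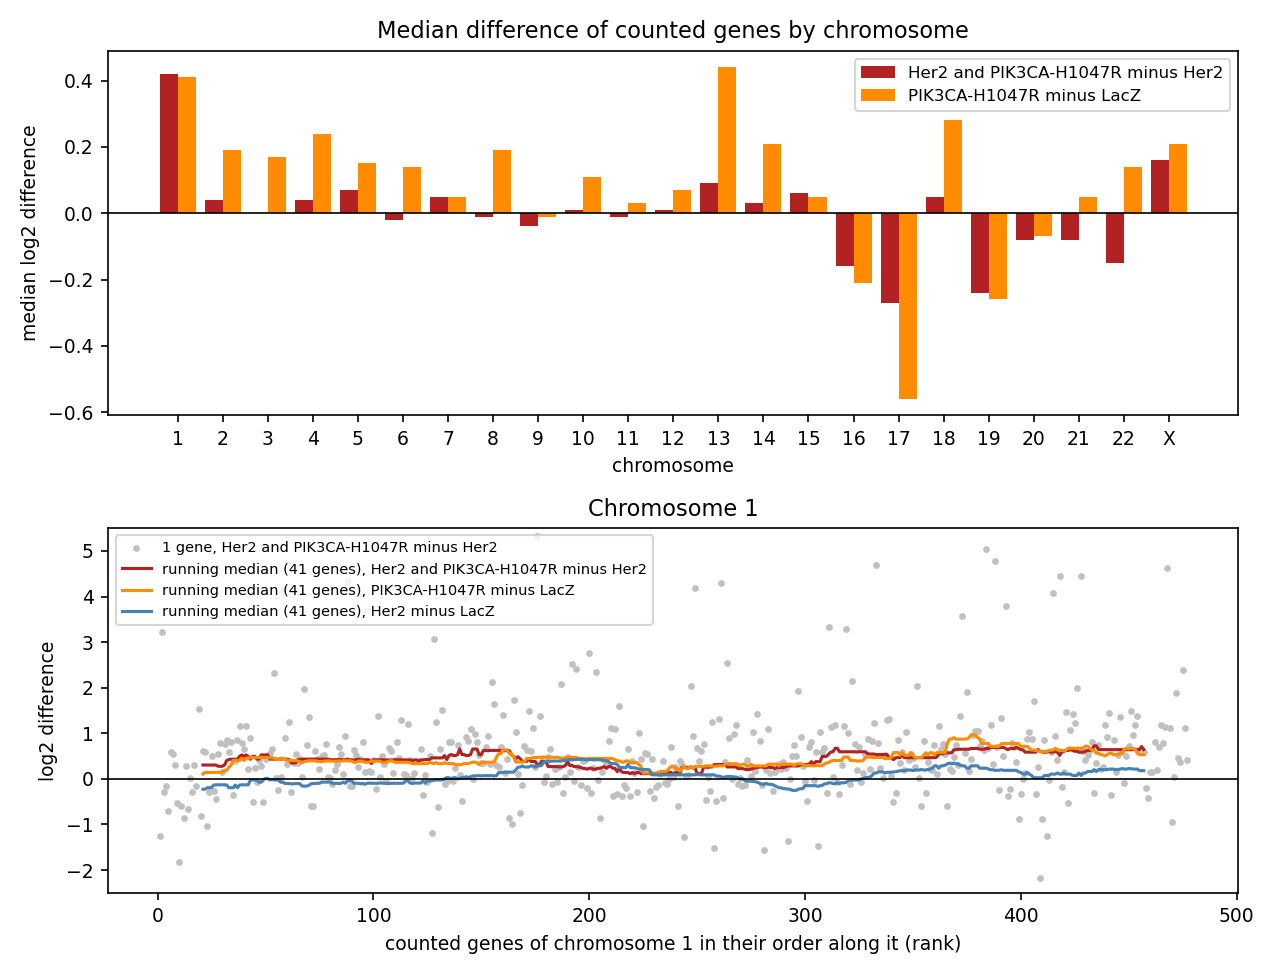
Upper panel, median log2 difference of counted genes on each chromosome for the array labelled Her2 and PIK3CA-H1047R minus that labelled Her2 (red) and PIK3CA-H1047R minus LacZ (orange). Lower panel, differences of the 477 counted genes of chromosome 1 in their order, each point 1 gene, with running medians for both contrasts and for Her2 minus LacZ (blue). Chromosome 1 has the highest red bar, 0.42, and chromosome 17 the lowest in both contrasts, and the red and orange running medians stay above 0, lowest near the start and the middle of chromosome 1.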

How the data were processed

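RNA of 4 MCF10A samples was measured on 1 Affymetrix array each. The authors deposited log2 values, 1 for each probe set. Per the submitters' processing notes they used oligo and RMA, a method that corrects background, normalizes between arrays and summarises probes. Neither versions nor probe set definitions are stated in the sources used here. The table held 53617 probe sets, of which the platform annotation gave 1 symbol for 23871, several for 1842 and none used here for 27904. Symbols were updated with RefSeq (GRCh38.p14), which changed 90. A gene with several probe sets was taken at the one with the highest mean. ERBB2, PIK3CA and 1489 small RNA genes were left out of counts and lists, and ERBB2 was read from a probe set with several symbols.

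The difference of log2 values was computed in Python 3.11.15 with pandas 2.3.3 and numpy 2.4.6. Counted genes reached 5 on at least 1 array, and genes were called at 2-fold. With 1 array a side there was no test. The number of arrays limits the precision, and a value near background has no known true size. Lists (61 in all) were counted over all measured members, without a filter. The members, lists, motifs and chromosomes described were chosen with earlier results of these data known. Named genes were the 20 highest and 20 lowest differences, the 10 highest and lowest among genes at 7 or more on both arrays, the 10 highest and lowest the same way in both pairs, the 5 largest opposite ones in each direction, the largest and the defining members of lists, and the neighbours of ERBB2. Uncharacterised symbols were counted, not named. The counting steps were tested on simulated data. Alternatives were other filters (3, 7, none, or a mean of 5), quantile normalization, cyclic loess (3 iterations, limma 3.58.1 in R 4.3.3), the mean of all probe sets, small RNAs kept, and thresholds of 1.5-fold and 4-fold. The chromosome 1 alternatives and cyclic loess of all genes were added after seeing the data.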

Additional observations from a re-analysis of the deposited data

Results flagged for a closer look

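These 10 genes differed by at least 2-fold in opposite directions when the mutant PIK3CA label was added to the Her2 label and to LacZ, in 2 pairs of arrays that share none. The difference between the pairs was not tested, since each group has 1 array.

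Of the genes higher with both labels, 2 are histones. H2BC14 differed by 4.25 against the array labelled Her2 and by -2.00 for mutant PIK3CA against LacZ. H1-4, a linker histone, differed by 1.62 and -1.38. NQO1, a quinone reductase, differed by 1.90 and -1.28, the secreted protease ADAMTS9 by 1.69 and -1.08, and the kinase PRKCA by 1.05 and -1.08. In 4 of these 5 genes the array labelled mutant PIK3CA was the lowest of the 4, and in H1-4 the array labelled Her2 was (6.85 beside 6.94).

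Of the genes lower with both labels, 3 belong to TGF-beta family signalling. BMP6, a ligand, differed by -1.73 and 2.89, INHBA, a subunit of activin, by -1.66 and 1.59, and BAMBI, a pseudoreceptor, by -2.52 and 1.40. SLITRK6, a membrane protein, differed by -2.93 and 1.66, and the lipase relative PNLIPRP3 by -1.70 and 1.65. BMP6 read 1.29 on the array labelled with both, near background.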

How the results depend on the processing

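No paired analysis was possible because each group has 1 array, and for the same reason no replicate could be left out. Alternative values were computed for the 81 genes named by rank of their differences. Genes named only as list members or as neighbours of ERBB2 were not included. Of 324 alternative values for the 81 genes, 315 kept their direction and 2-fold size, 7 lost the size and 2 turned. The 2 were ADAMTS9 (-0.09) and NUF2 (-0.16) under cyclic loess of the counted genes. Counted genes with low averages were kept for being high on at least 1 array, and the part of this was not tested. Under cyclic loess of all genes ADAMTS9 and NUF2 were 1.67 and 4.67. The count of higher genes was 922 without a filter, 780 and 96 with filters at 3 and 7, 155 by the mean, and 787 and 162 at 1.5-fold and 4-fold. Lower genes were 552 without a filter, 444 and 113 with filters at 3 and 7, and 682 and 53 at 1.5-fold and 4-fold. Higher in both pairs were 31 with a filter at 7, 37 by the mean, 71 after quantile normalization, 72 after loess, and 303 and 27 at 1.5-fold and 4-fold. Lower in both pairs were 85 without a filter, 80 and 17 with filters at 3 and 7, 33 by the mean, 76 after quantile normalization, 78 after loess, and 211 and 3 at 1.5-fold and 4-fold. Members of any list at least 2-fold higher were 204, and 124 with the filter at 5, 39 by the mean and 113 at 4-fold. Members lower were 87, and 54 by the mean, 173 at 1.5-fold and 30 at 4-fold. Of 122 counts of higher or lower members of single lists, 8 moved by over 1.5 times after quantile normalization and 4 after cyclic loess of all genes. With the filter at 5, 32 moved, by the mean 49, with the mean of all probe sets 0, at 1.5-fold 55 and at 4-fold 60. The mean of all probe sets can alter only genes with several of them. Since 22395 genes had 23871 probe sets with 1 symbol, most values could not change in it. By the mean, higher mitotic genes went from 42 to 6 and higher replication genes from 40 to 4. This filter drops members with a low average and leaves each difference unchanged, so fewer members were counted. Without it, all 43 mitotic and all 45 replication members lay above 0. After quantile normalization, higher members were 2 for fatty acid synthesis, 2 for S100 proteins and 1 for class I antigen presentation, and lower members 2 for hypoxia response, 5 for epithelial transcription and splicing factors, 1 for cornification, 4 for FOXO targets and 2 for MAPK output. The share of chromosome 1 genes above 0 was 59.3% without a filter and 72.7% to 75.2% in the other 4 alternatives. Other filters change how many genes are counted by construction, but the share of higher genes among those called changed too. It was 59.8% in the main count, 62.6% without a filter and 63.7% with a filter at 3. It was 45.9% with a filter at 7 and 44.5% by the mean. For these and the other settings the cause was not tested. Signal over background limits genes under 2 on an array.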

Other observations

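Detoxification genes split in direction. Of 19 NRF2 targets 3 were higher and 3 lower, with a median of 0.05. ABCC2, an efflux pump, differed by 3.92, NQO1 by 1.90 and GCLM, a subunit of the glutathione-synthesis enzyme, by 1.08, while the aldo-keto reductase AKR1C2 differed by -2.68 and SLC7A11 by -1.85. AKR1C2 was above 2 on the array labelled Her2 only.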
